A study of Mus musculus with 24 samples.

Results

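The comparison described here is between wide and narrow mouse haematopoietic stem cells, where width is the forward scatter pulse width (FSC.W) that the cytometer recorded for each cell at the sort. Within each of 4 sort plates, the 20% of cells with the highest FSC.W were called wide, the 20% with the lowest narrow, and the rest middle. This gave 285 wide cells, 850 middle cells and 285 narrow cells, 1420 of the 1430 recorded cells. The 10 cells left out carry the number 1 in a column called map, whose meaning the record does not state. Within the cells used, the sides were set by scatter alone and not by RNA counts. The map number may have been assigned from RNA, and the values of the 2 globin genes named here turn when the map 1 cells are put back.

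All cells came from the stem cell gate LSK (lineage-negative, Sca-1+, Kit+), CD150+, CD48-, and are labelled HSC. Every mouse was of the strain written as -60/DR5-TA-RA-CFP, which carries a CFP reporter of retinoic acid signalling. The labels give the cells a mixed CFP status and give no treatment, age or sex. The series also holds bulk RNA and bisulphite sequencing of HSCs, not used here. Single cells were index sorted into multiwell plates, reverse transcribed with barcoded poly(T) primers, pooled and amplified, and the deposited table holds counts of unique molecular identifiers (UMIs), each standing for 1 captured RNA molecule. The labels list 8 single-cell samples, each with its own batch in the mouse field, but no file links the wells to them, and cells of 1 animal may lie on several plates. The 4 plates are therefore technical replicates, and the p-values do not measure the spread between animals. Those of the gene test (edgeR) rest mostly on a spread pooled over genes, with 307.5 prior against 6 residual degrees of freedom. A small value there does not measure the spread of that gene alone over the 4 plates. On the strict reading that the pooled table is 1 sample, no test would be possible.

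Forward scatter is light deflected at small angles as a cell crosses the laser, and pulse width is the time the cell takes to cross, which grows with the length of the cell along the stream. Pulse area (FSC.A) also depends on pulse height. Side scatter (SSC.A) is light deflected at wide angles and follows internal structure. Most HSCs of an adult mouse are quiescent. A cell that enters the cycle grows and copies its DNA in S phase. It then builds a spindle of tubulin and divides in G2 and mitosis. Histones are made mainly in S phase, and cyclins, kinesins and checkpoint kinases in G2 and mitosis.

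In these data FSC.W equalled 256 times FSC.A divided by FSC.H to within 1.64 units, so width was area relative to height. Median FSC.W was 327, 335, 331.5 and 331 in the wide cells of plates 2 to 5, against 298, 297, 296 and 295 in the narrow cells. The lowest wide cell of each plate lay at 320 to 322, as did the highest middle cell, and the highest narrow cell at 298 to 300. Between 1 and 4 middle cells a plate shared the value of the lowest wide cell, and between 1 and 8 that of the highest narrow cell.

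Summed over cells, a plate held 115333 to 148472 UMIs of wide cells, 284836 to 325153 of middle cells and 79417 to 90526 of narrow cells. Values for genes are given as counts per 1000000 UMIs (CPM) of such a sum, which does not tell more cells with a gene from more RNA per cell. Plate 2 stood apart from the others. Of 3622 genes tested, 115 lay there more than 4-fold below every other plate, over all cells, against 1, 0 and 0 genes in plates 3, 4 and 5. Among those genes are Ifitm1, Eef1a1, Rpl30, Ly6e and Hsp90aa1. Plate was a term of the fit. For many calls, but not for all, the plates without which the call was lost are named. The calls of Rpl30 and Ly6e in wide against narrow cells were lost without plate 2, and also without other plates.

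The 15 largest rises with 1 sign in every plate were of 8 G2/M list genes, 5 histones, Tk1 of the S phase list and Fam64a, which is in none of the lists. In wide cells 29 of 32 G2 and mitosis genes, 22 of 31 S phase genes and 3 of 7 tubulin and stathmin genes passed the test with higher values, and 8 of 27 stem cell genes and 15 of 57 ribosomal protein genes with lower ones. edgeR's quasi-likelihood test with Benjamini-Hochberg adjustment, with plate as a block, called 145 of 3622 genes higher in wide cells (4.0% of those tested) and 102 lower (2.82%). At an unadjusted p under 0.05 it took 658 genes. Of the 145 risers, 84 lay outside the lists of S phase, G2/M and histone genes, and so did all 102 that fell. The median log2 fold change over all genes was -0.02. Only genes past a filter on low counts were tested, and a gene can pass it through 1 side alone.

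The promoters of the width marker Tuba1b and of 3 mitotic genes are shown because the mitotic genes moved together and carry the sequence elements that textbooks give for such genes. Each runs from 250 bases before to 50 after the start of the gene in RefSeq (GRCm38.p6), and reads 5′ to 3′ on the strand of the gene. Capitals mark TTTGAA, the core of the cell cycle homology region, and CCAAT, the box that the factor NF-Y binds, on either strand (TTCAAA and ATTGG in the reverse). Neighbouring matches can share letters: CCAATTGG holds a CCAAT on both strands. Tuba1b, an alpha-tubulin, lies on the minus strand at chr15:98934341-98934640. Ube2c, which loads ubiquitin for the anaphase-promoting complex, lies on the plus strand at chr2:164769679-164769978. Top2a, the topoisomerase that untangles replicated DNA, lies on the minus strand at chr11:99024140-99024439. Cdca8, a subunit of the chromosomal passenger complex, lies on the minus strand at chr4:124936868-124937167.
Tuba1b: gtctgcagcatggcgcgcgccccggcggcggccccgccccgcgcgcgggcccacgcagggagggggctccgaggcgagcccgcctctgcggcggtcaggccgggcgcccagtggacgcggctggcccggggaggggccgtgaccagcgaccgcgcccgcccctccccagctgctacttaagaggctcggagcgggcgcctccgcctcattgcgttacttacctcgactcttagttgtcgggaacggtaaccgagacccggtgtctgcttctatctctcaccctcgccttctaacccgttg
Ube2c: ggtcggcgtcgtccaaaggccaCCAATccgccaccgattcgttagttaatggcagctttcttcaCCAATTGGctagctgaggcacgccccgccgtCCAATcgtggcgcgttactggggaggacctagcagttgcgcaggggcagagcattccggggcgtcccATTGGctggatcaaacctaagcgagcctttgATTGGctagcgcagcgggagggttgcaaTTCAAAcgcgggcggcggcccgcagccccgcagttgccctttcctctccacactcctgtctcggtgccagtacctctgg
Top2a: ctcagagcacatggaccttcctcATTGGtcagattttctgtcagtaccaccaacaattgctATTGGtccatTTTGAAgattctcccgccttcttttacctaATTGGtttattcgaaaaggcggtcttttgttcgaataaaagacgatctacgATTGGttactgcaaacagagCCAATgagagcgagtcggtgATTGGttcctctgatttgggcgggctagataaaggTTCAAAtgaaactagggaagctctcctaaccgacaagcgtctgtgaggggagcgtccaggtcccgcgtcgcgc
Cdca8: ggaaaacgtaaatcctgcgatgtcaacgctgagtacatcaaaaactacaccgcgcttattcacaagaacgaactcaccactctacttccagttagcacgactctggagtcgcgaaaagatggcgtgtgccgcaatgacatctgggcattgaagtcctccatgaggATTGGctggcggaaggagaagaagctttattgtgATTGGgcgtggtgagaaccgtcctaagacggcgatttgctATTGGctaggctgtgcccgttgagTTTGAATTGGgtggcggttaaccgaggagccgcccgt
The Tuba1b window held neither element. Ube2c held 1 TTTGAA and 6 CCAAT, Top2a 2 and 6, and Cdca8 1 and 4. Over all genes, TTTGAA stood in 85.7% of the promoters of the G2/M genes that rose in wide cells (18 of 21 with a promoter in RefSeq), in 34.7% of all genes that rose (35 of 101), in 15.8% of those that fell (12 of 76), in 14.3% of 2735 tested genes and in 20.2% of all 27025 promoters. CCAAT stood in 90.5%, 65.3%, 44.7%, 41.8% and 41.1% of the same groups. The E2F-like letters TTTGGCGC or TTTCGCGC stood in 13.9% of the promoters of genes that rose and 0% of those that fell, against 2.71% of tested genes. The 21 promoters of G2/M genes are among the 101 of genes that rose, so they add to the shares of that group. No share was taken for the G2/M list as a whole. The 85.7% may thus be a trait of that list and not of genes that rose with width, which was not tested. These are matches of letters, with no measure of binding.

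Tuba1b itself rose with width across its whole range. Wide cells had 3052, 2491, 3093 and 2761 CPM of Tuba1b in plates 2 to 5, against 1137, 961, 1058 and 890 CPM in narrow cells. The sides did not overlap, and the lowest wide plate was more than 2 times the highest narrow plate. Middle cells averaged 1700 CPM. The log2 fold change of wide over narrow was 1.48 ± 0.09 (SE; edgeR, adjusted p = 7e-44). When each plate was cut into 10 equal groups by width, the mean level over plates climbed at each step, from 945 CPM in the narrowest group to 1333 in the fourth, 1947 in the seventh and 3130 in the widest. The gene was also detected in more cells. Thinning to 1000 UMIs kept the cells with at least that many, 244 of 285 wide and 166 of 285 narrow cells. Of these, 77.2% ± 6.58 of wide cells and 60.2% ± 2.75 of narrow cells had a Tuba1b UMI (SD, n = 4 plates). Over all cells, without thinning, the values were 82.8% and 64.6%.

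**Figure D1:**
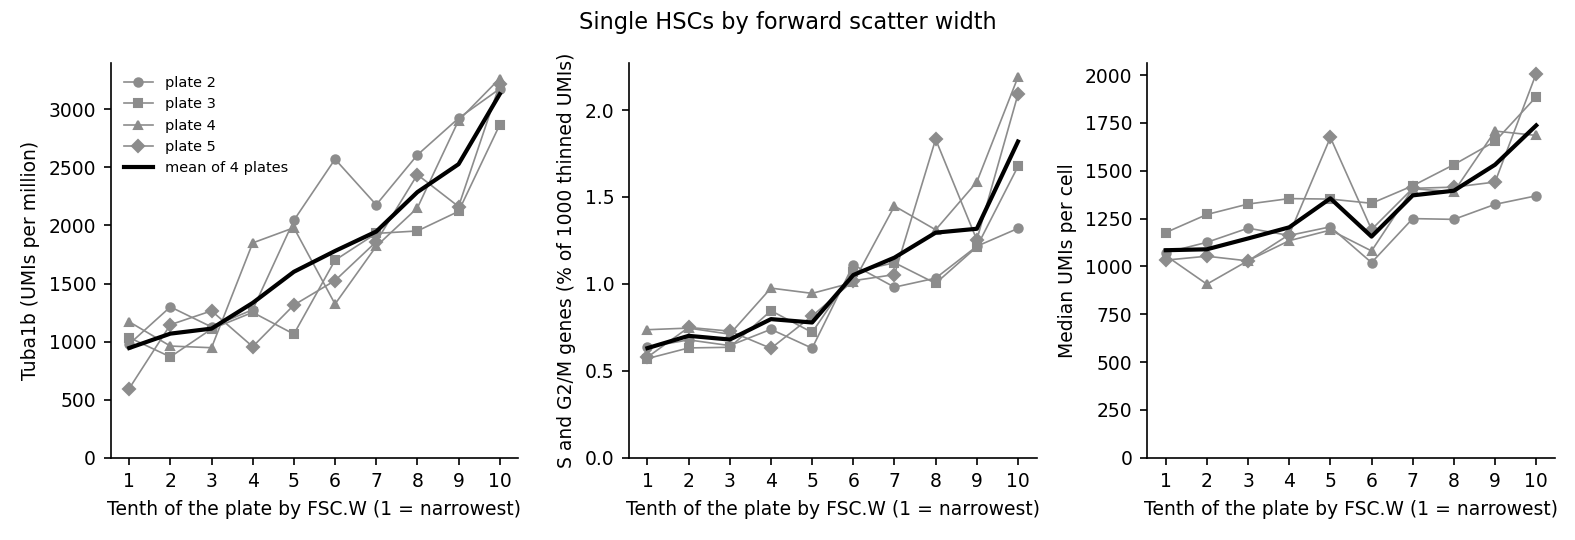
Level of Tuba1b (CPM), share of UMIs from S phase and G2/M genes (percent) and median UMIs per cell, in 10 groups of equal size by FSC.W within each plate, narrowest to widest; points are plates and the line is their mean. Tuba1b climbs at each step from 945 to 3130 CPM, and the cell cycle share rises mainly over the wider 5 groups.

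The other tubulins with a call followed Tuba1b. Tubb5, the main beta-tubulin of dividing cells, had 1994, 1769, 2200 and 1926 CPM in wide cells, against 675, 851, 869 and 854 CPM in narrow cells, a log2 fold change of 1.26 ± 0.10 with no overlap (edgeR adjusted p = 1.6e-26). Tuba1c averaged 298 ± 79.0 CPM in wide cells and 145 ± 32.5 CPM in narrow cells (SD, n = 4 plates), a log2 fold change of 1.02 ± 0.24. The tubulin genes are close in sequence, and reads of their shared parts may have been split between them. Of 7 tubulin and stathmin genes tested, 3 rose and none fell, and all 7 had positive values. Their median was 1.02 on the log2 scale, against -0.02 over all genes. The list has 20 entries, and a gene high in wide cells alone can pass the filter on low counts. The filter thus shapes these counts, signs and median. Stmn1, which destabilises microtubules, had 71.4 CPM in wide cells and 29.5 CPM in narrow cells and did not pass (1.20 ± 0.54).

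RNA content per cell also differed. The median wide cell held 1333, 1673, 1693 and 1508 UMIs in plates 2 to 5, against 1093, 1235, 962.5 and 1036 UMIs in the median narrow cell. The sides did not overlap, and the ratio within a plate was 1.22 to 1.76, 1.45 ± 0.229 on average. An exact two-sided sign-flip test over the 4 plates gave p = 0.125, the smallest that 4 plates allow. The number of genes detected per cell followed depth. In the 244 wide and 166 narrow cells that could be thinned to 1000 UMIs, it was 698.5 and 693 (exact sign-flip p = 0.375). Wells with more than 2 times the median UMIs of their plate made up 24.2% of wide cells (69 of 285, exact binomial interval 19.4 to 29.6%), 6.59% of middle cells (56 of 850) and 1.05% of narrow cells (3 of 285, interval 0.218 to 3.05%). The intervals pool the cells of the 4 plates and cover counting error only, not the spread between plates. The cells were sorted 1 to a well and no doublet caller was run, so the share of these wells that hold more than 1 cell was not tested.

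Genes of G2 and mitosis were the list with the largest share of risers. Of 32 tested, 29 rose, 0 fell and the median log2 fold change was 2.10. The other 3 had positive values but did not pass. The list has 69 entries, and the rest were too sparse to test. A gene high in wide cells alone can pass the filter on low counts, so the filter shapes these counts, signs and median. Ube2c had 338, 236, 536 and 626 CPM in wide cells, against 12.5, 33.1, 75.6 and 24.1 CPM in narrow cells, a log2 fold change of 3.52 ± 0.33 (edgeR adjusted p = 2.6e-20). Cdca8 had 303, 229, 357 and 370 CPM in wide cells, against 62.5, 44.2, 50.4 and 12.0 CPM in narrow cells (2.86 ± 0.33). Top2a had 147, 749, 707 and 936 CPM in wide cells, against 99.9, 122, 126 and 108 CPM in narrow cells (2.45 ± 0.22). For each of the 3 genes the lowest wide plate lay above the highest narrow plate, and the low Top2a value is that of plate 2.

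Other members of the G2/M list act in the spindle and its checkpoint. Spc24, a kinetochore protein, averaged 343 ± 66.8 CPM in wide cells and 41.6 ± 22.3 CPM in narrow cells (log2 fold change 2.99 ± 0.32), and the spindle protein Ckap2l and the spindle motor Kif11 rose by 3.12 ± 0.45 and 2.87 ± 0.41 on the same scale. The checkpoint kinase Bub1b rose by 2.82 ± 0.42, and Cdk1, the kinase that drives entry into mitosis, by 2.05 ± 0.32. The checkpoint protein Bub3 (0.35), the joint entry of the mitotic kinase Plk1 with Dctn5 (0.52) and the entry D2Ertd750e;Gm14090 (1.22) did not pass. For 3 genes the narrow side held almost no molecules, so counts are given. The mitotic kinase Aurkb had 73 UMIs in all wide cells and 2 in all narrow cells, a depth-corrected ratio of 22.2 (95% interval 5.93 to 187). Fam64a had 71 and 3 UMIs (ratio 14.4, 4.73 to 71.4), and the kinase Pbk 68 and 3 (13.8, 4.52 to 68.5), both with wide cells first. These intervals cover counting error only. The proliferation marker Mki67 rose by 1.78 ± 0.44, with an edgeR adjusted p of 0.0024 that became 0.064 without plate 3 and 0.077 without plate 5.

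S phase genes rose less. Of 31 tested, 22 rose and none fell, and the median was 1.07 on the log2 scale. The list has 50 entries, and the same filter shapes these values. Tk1, the thymidine kinase that supplies a DNA precursor, had 277, 451, 493 and 263 CPM in wide cells, against 12.5, 44.2, 25.2 and 12.0 CPM in narrow cells (3.89 ± 0.36, edgeR adjusted p = 1e-20). The sides were far apart in every plate. DNA ligase Lig1 rose by 1.54 ± 0.22, the maintenance methyltransferase Dnmt1 by 1.45 ± 0.20 and the sliding clamp Pcna by 1.07 ± 0.20. Calls of 4 members were lost when 1 plate was left out. The chromatin remodeller Hells (2.03 ± 0.49) did not pass without plate 3, the checkpoint adaptor Clspn (1.83 ± 0.52) without plate 2 or 4, the histone chaperone Asf1b (1.58 ± 0.51) without any 1 of the plates, and the helicase subunit Mcm6 (0.53 ± 0.16) without plate 3 or 5.

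Histone transcripts also rose: 10 of 12 replication-dependent histones tested were called higher and 0 lower, with a median log2 fold change of 2.09. The other 2 were not called and did not have positive values. The data hold 39 entries of this list, and the same filter shapes these values. Hist1h1b, a linker histone, had 971, 728, 1043 and 2101 CPM in wide cells, against 150, 77.3, 277 and 96.2 CPM in narrow cells (3.00 ± 0.18, edgeR adjusted p = 4.4e-42), with no overlap. Hist1h2ae rose by 2.98 ± 0.25, Hist1h1a by 2.74 ± 0.26, Hist1h3b by 3.37 ± 0.59 and Hist1h2an by 3.50 ± 0.58. Histone genes are near copies of each other, and most of their transcripts lack the poly(A) tail that the primer binds, so the split between members and the captured fraction are uncertain. Among 12 histone variants and high-mobility-group genes, 2 rose: the joint entry H2afv;H2afz (1.08 ± 0.12) and the linker variant H1fx (1.19 ± 0.27).

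As a share of all UMIs, the G2/M list made up 0.983% ± 0.229 of wide cells and 0.242% ± 0.0348 of narrow cells, the S list 0.830% ± 0.0687 and 0.395% ± 0.0212, and the histones 0.656% ± 0.260 and 0.182% ± 0.0456 (SD, n = 4 plates). To hold depth equal, cells were thinned to 1000 UMIs, which kept 244 of 285 wide, 606 of 850 middle and 166 of 285 narrow cells. The S and G2/M lists together then took 1.27, 1.41, 1.89 and 1.67% of the UMIs of wide cells in plates 2 to 5, against 0.660, 0.602, 0.741 and 0.674% in narrow cells. No wide plate reached down to a narrow plate, and the difference was 0.892 ± 0.233 percentage points (exact p = 0.125). The ratio of G2/M to S UMIs, a measure chosen after the data were seen, was 1.19 ± 0.273 in wide cells, 0.491 ± 0.0352 in middle cells and 0.617 ± 0.111 in narrow cells. Each wide plate, at 0.902 or above, lay over each narrow plate, at 0.726 or below.

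**Figure D2:**
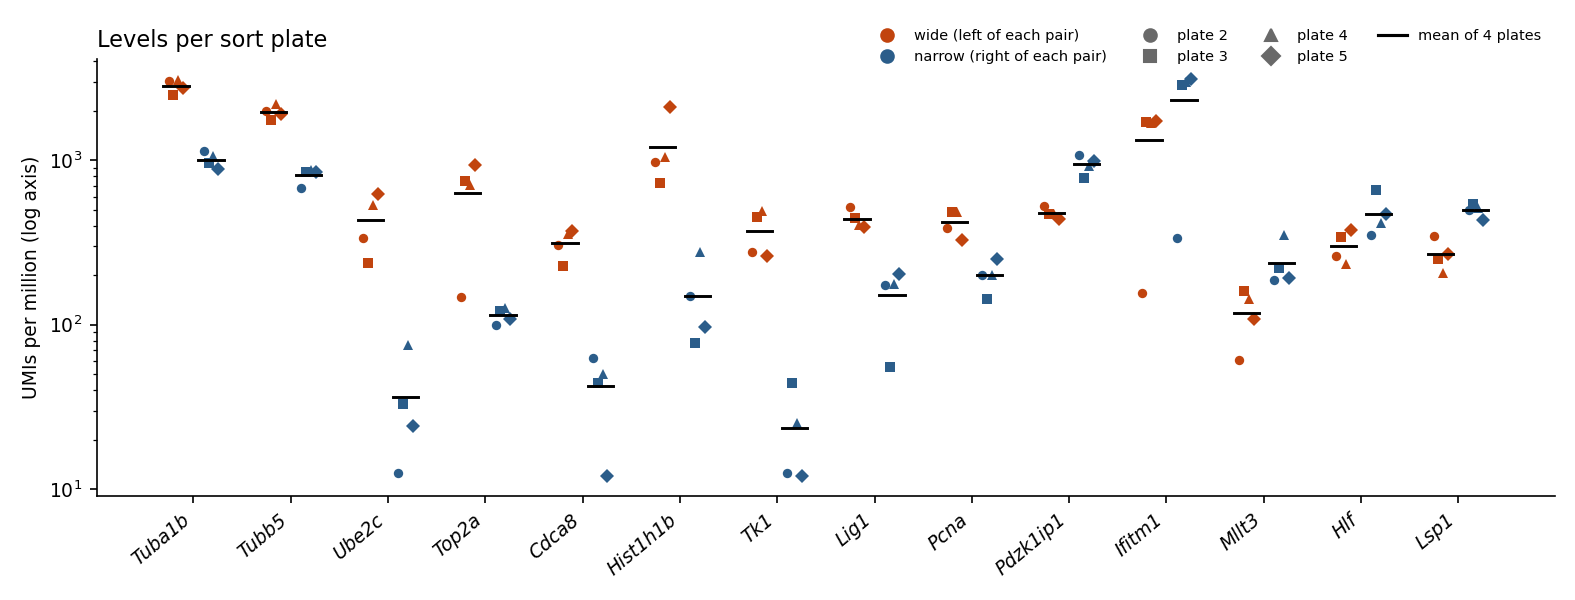
CPM (UMIs per 1000000, log axis) of named genes in wide cells (left of each pair) and narrow cells (right); each point is 1 of the 4 plates and the bar is their mean. The tubulin, mitotic, S phase and histone genes lie higher in wide cells of every plate, and Pdzk1ip1, Mllt3 and Ifitm1 lower.

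Genes of growth and RNA processing moved less, and in smaller numbers. Of 28 genes of G1 cyclins and growth, 8 rose, 1 fell, and the median log2 fold change was 0.50. Odc1, the first enzyme of polyamine synthesis, averaged 157 ± 31.9 CPM in wide cells and 63.2 ± 36.5 CPM in narrow cells (1.29 ± 0.35). The nuclear transport GTPase Ran had 945, 694, 964 and 889 CPM in wide cells, against 437, 541, 516 and 505 CPM in narrow cells (0.78 ± 0.13), with no overlap. Its partner Ranbp1 rose by 0.79 ± 0.15 and the G1 kinase Cdk4 by 0.57 ± 0.12. The histone chaperone Anp32e rose by 0.96 ± 0.25, a call lost without plate 2 or 5. The entry of the G1 cyclin Ccnd2 went the other way (-0.42 ± 0.13), a call lost without plate 4 or 5.

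Of 71 genes of oxidative phosphorylation 6 rose, with a median log2 fold change of 0.09, little above that of all genes. The ATP synthase subunit Atp5g3 averaged 962 ± 123 CPM in wide cells and 603 ± 19.7 CPM in narrow cells (0.65 ± 0.12). Outside the list, Slc25a5, the carrier that exchanges ATP and ADP across the mitochondrial membrane, averaged 908 ± 108 CPM in wide cells and 537 ± 146 CPM in narrow cells (0.72 ± 0.13). The calls of the respiratory chain subunits Ndufv2, Uqcrq and Cox5a were each lost without 1 of several plates. Of 45 spliceosome genes 4 rose (median 0.29), among them Snrpd1 (0.73 ± 0.16) and the joint entry of Hnrnpa2b1 (0.52 ± 0.11). Of 31 proteasome genes 2 rose, Psmc5 (1.10 ± 0.31, lost without plate 4) and Psmc3 (0.61 ± 0.18, lost without plate 2 or 5). Of 26 heat shock genes 1 rose, the chaperone Hsp90aa1 (0.72 ± 0.17, lost without plate 5). Over all genes tested 4.0% were called higher, and the proteasome and heat shock counts lay near that share. Among 33 ribosome biogenesis, 10 glycolysis and 21 endoplasmic reticulum genes no member passed in either direction.

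Part of the stem cell programme fell in wide cells. Of 27 tested, 8 fell, none rose and the median was -0.31 on the log2 scale. Pdzk1ip1, a membrane protein used as a marker of HSCs, had 529, 472, 471 and 438 CPM in wide cells, against 1074, 784, 919 and 998 CPM in narrow cells, with no overlap (-0.99 ± 0.13, edgeR adjusted p = 5.3e-11). Ifitm1, an interferon-inducible membrane protein, had 156, 1720, 1679 and 1731 CPM in wide cells, against 337, 2883, 2997 and 3127 CPM in narrow cells (-0.85 ± 0.08, adjusted p = 5.5e-19). Plate 2 held far less than the others on both sides, and within every plate the wide cells had the lower value. The factor Mllt3, which sustains HSC self-renewal, had 60.7, 160, 143 and 108 CPM in wide cells, against 187, 221, 353 and 192 CPM in narrow cells (-1.03 ± 0.26), a call lost without plate 4 (adjusted p = 0.10). The other 5 calls were also lost when 1 plate was left out. The receptor Procr (-1.08 ± 0.36) did not pass without plate 2, 3 or 4, the transcription factors Mecom (-1.01 ± 0.30) without 2, 4 or 5, Hlf (-0.66 ± 0.17) without 3 and Gata2 (-0.62 ± 0.16) without 4 or 5, and the adhesion molecule Esam (-0.80 ± 0.26) without 3, 4 or 5.

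RNA of the proteins that define the gate gave no call in the comparison of the 20% sides. The entry of Kit was 276 ± 117 CPM in wide cells and 383 ± 200 CPM in narrow cells (-0.48 ± 0.19, edgeR adjusted p = 0.11). It passed as lower in wide cells when only cells of at least 1000 UMIs were used (-0.78, adjusted p = 0.0038) and within 4 groups of a plate by UMIs (-0.44, adjusted p = 0.045), and was at 0.33, not called, with cells thinned to 500 UMIs. Ly6a, which encodes Sca-1, was at 37.7 ± 36.1 and 38.5 ± 28.2 CPM, and Slamf1, which encodes CD150, at 26.7 ± 20.3 and 17.1 ± 21.3 CPM, wide cells first. Both were below the filter on low counts. Cd34, which rises as HSCs become progenitors, was at 189 ± 35.3 CPM in wide cells and 131 ± 98.9 CPM in narrow cells (0.49 ± 0.28, not called).

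Ribosomal protein genes made the longest list of falls by number, each small. Of 57 tested, 15 fell and 1 rose, and the median log2 fold change was -0.15. Rps14 had 9858, 7374, 8015 and 7880 CPM in wide cells, against 11380, 8572, 10099 and 10259 CPM in narrow cells (-0.30 ± 0.04, edgeR adjusted p = 1.4e-09). The plates overlapped between sides, since plate 2 was high on both, but the wide cells were lower within each plate. Rps9 fell by 0.29 ± 0.04 on the log2 scale. At equal depth the settings differed. With cells thinned to 500 UMIs both were still called, at -0.26 for Rps14 and -0.28 for Rps9. Within 4 groups of a plate by UMIs they were at -0.04 and -0.0078, and in cells matched 1 to 1 on UMIs at 0.03 and 0.02, neither called in either. The elongation factors Eef1a1 (-0.27 ± 0.06) and Eef2 (-0.25 ± 0.06) were also lower, both calls lost without plate 4, and in cells matched 1 to 1 on UMIs Eef2 was at 0.02, not called.

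Among other genes that fell, 4 of 18 interferon genes were called (median -0.38, 0 higher), and each call was lost without 1 of at least 2 plates. Irf7 (-1.22 ± 0.34) was higher in wide cells of 1 plate and was lost without plate 2 or 3. Txnip, a thioredoxin inhibitor that is high in quiescent cells, fell by 0.46 ± 0.11 on the log2 scale in the list of 4 quiescence genes. In the list of 7 multipotent progenitor genes, the leukocyte protein Lsp1 averaged 268 ± 58.4 CPM in wide cells and 498 ± 46.3 CPM in narrow cells (-0.92 ± 0.18, edgeR adjusted p = 2.3e-05), and Cd27 fell by 0.64 ± 0.20, a call lost without plate 3, 4 or 5. The detoxifying enzyme Gstm1 (-0.75 ± 0.17) and the granule protease Prtn3 (-0.49 ± 0.12, lost without plate 4) were the 2 of 6 myeloid genes that fell. Ier2, an immediate early gene, was at -1.04 ± 0.33, a call lost without any 1 plate. Of 10 MHC class I genes 1 was lower, the joint entry of B2m (-0.60 ± 0.18, lost without plate 3 or 4), and 1 higher, the joint H2-Q entry (0.32 ± 0.10, lost without plate 2, 4 or 5). The lysosomal membrane protein Laptm5, measured in a joint entry, was at -0.39 ± 0.09 (lost without plate 5) and the myosin light chain Myl12b at -0.44 ± 0.12 (lost without plate 3 or 4). Over all genes tested 4.0% were called higher and 2.82% lower, and 1 call in a list is not read as a result about that list.

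The largest falls were of less abundant genes. The vitamin D receptor Vdr had 17.3, 20.8, 14.3 and 26.9 CPM in wide cells, against 99.9, 110, 37.8 and 84.2 CPM in narrow cells (-2.04 ± 0.54, edgeR adjusted p = 0.0057), with no overlap. Tnip3, an inhibitor of NF-kappaB signalling, fell equally far (-2.04 ± 0.56) but was lost without plate 4 or 5. Pik3ip1, an inhibitor of PI3 kinase measured in a joint entry with Hgfl, averaged 133 ± 16.3 CPM in wide cells and 274 ± 47.7 CPM in narrow cells (-1.04 ± 0.24). The stress-response factor Xbp1 (-1.0 ± 0.25) and the lymphocyte GTPase Gimap6 (-0.93 ± 0.18) also fell, and these 2 with Vdr and Pik3ip1 stayed called without any 1 plate. The autophagy receptor Sqstm1 (-0.95 ± 0.24) was lost without plate 5, and the homeobox gene Nkx2-3 (-1.15 ± 0.36) without plate 2, 3 or 5.

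Markers of other cell types were present at different levels. Erythroid genes took 0.410 to 0.477% of the UMIs of wide cells and 0.400 to 0.519% of those of narrow cells, megakaryocyte genes 0.226 to 0.315% and 0.201 to 0.267%, myeloid progenitor and granule genes 0.251 to 0.341% and 0.314 to 0.368%, and B, T and NK cell genes 0.0626 to 0.0780% and 0.0722 to 0.106%, each with wide cells first. Neutrophil genes took 0 to 0.00286% of the UMIs of wide cells and 0 to 0.00250% of those of narrow cells, with 5 of 11 at 0, and 9 of 10 mast cell genes were at 0. Macrophage genes took 0.00674 to 0.0264% in wide cells and 0.0132 to 0.0177% in narrow cells. Of 9 megakaryocyte genes 1 rose, the platelet factor Pf4, at 43.4, 125, 193 and 539 CPM in wide cells, against 99.9, 110, 37.8 and 60.1 CPM in narrow cells. The sides overlapped, and the call (1.43 ± 0.33) was lost without plate 5, with an edgeR adjusted p of 0.64. Of 7 erythroid genes 1 fell, the beta-globin entry Beta-s (-0.92 ± 0.25, lost without plate 3 or 5). Its direction turned with the 10 map 1 cells included (2.73), as did that of the alpha-globin Hba-a2 (-0.56 ± 0.30, not called, and 3.15 with those cells). None of the 5 B, T and NK cell genes and of the 4 retinoic acid response genes tested passed. Beside 4.0% higher and 2.82% lower over all genes tested, the single calls in these short lists are not read as a result about the lists.

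**Figure D3:**
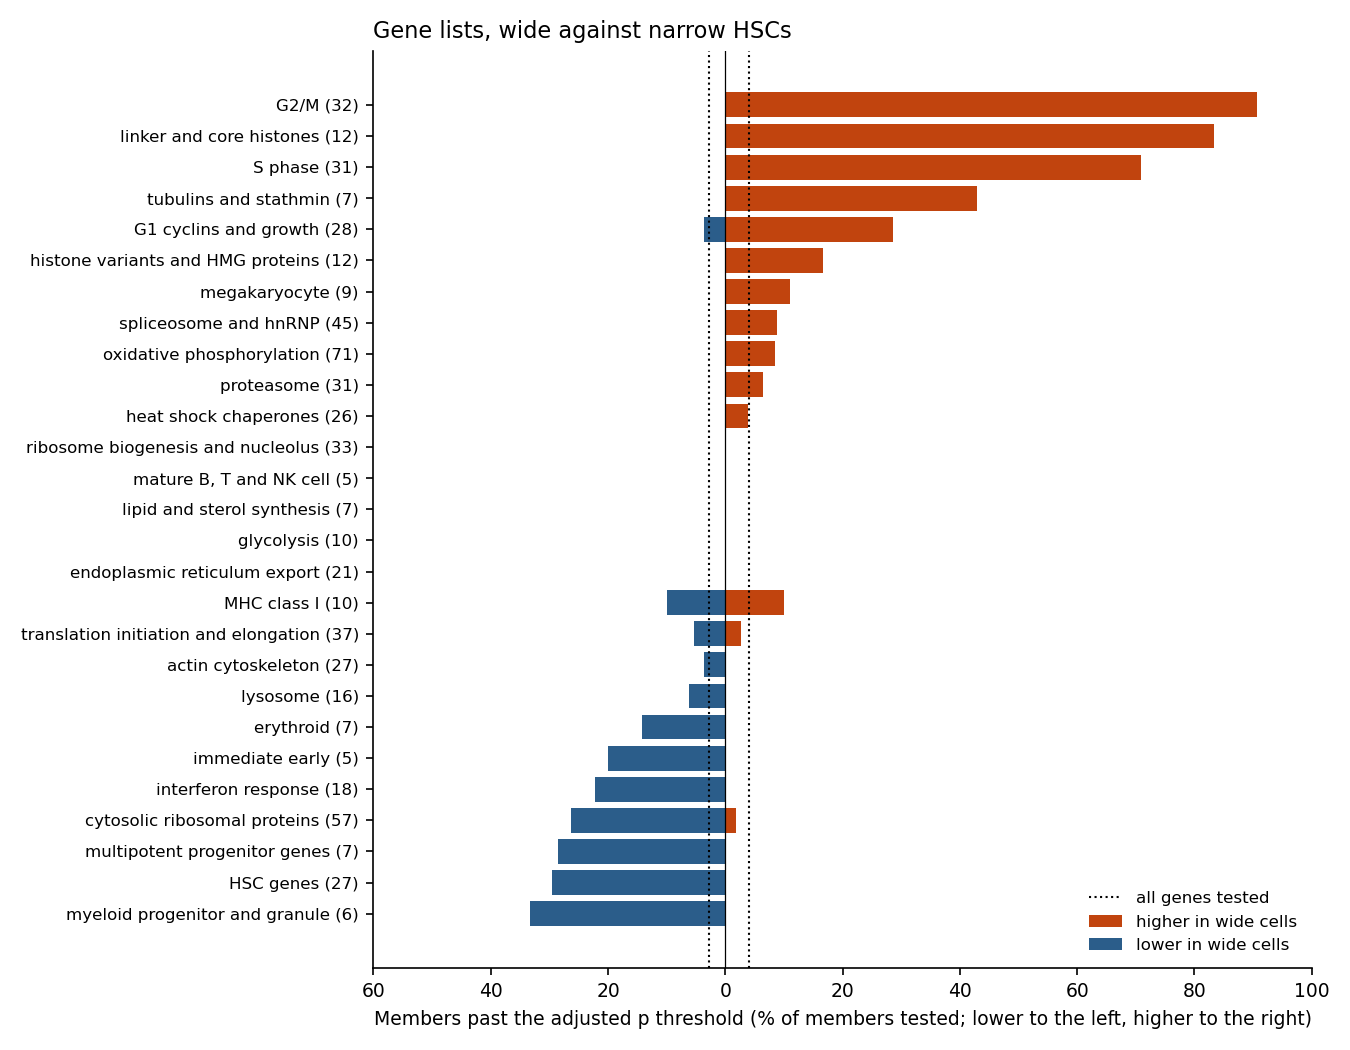
Percent of the tested members of each gene list (number tested in brackets) that were called higher (to the right) or lower (to the left) in wide than in narrow cells, with dotted lines at the percent of all genes tested. The G2/M list, with 29 of 32 higher, and the histones, with 10 of 12, reach farthest right, and the HSC, ribosomal, myeloid and progenitor lists reach left.

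The middle cells split the width range into 2 stretches, and each was tested. In wide against middle cells, 78 genes were higher (2.15% of those tested) and 41 lower (1.13%). They included 29 of 32 G2/M genes (median 1.74) and 10 of 12 histones (1.60), but 5 of 31 S phase genes (0.24). In middle against narrow cells, 23 genes were higher (0.635%) and 2 lower (0.0552%). There the S phase list had 9 risers (median 0.82), the G2/M list 2 (0.53) and the histones 1. Tk1 (2.45), Hells (2.06), Lig1 (1.12), Dnmt1 (1.04) and Pcna (0.88) were among those risers. Tuba1b rose by the same log2 fold change over both stretches, 0.74 in wide over middle and 0.74 in middle over narrow cells. The 2 genes that fell in middle cells were Gimap6 (-0.67) and Pdzk1ip1 (-0.42). The difference between the stretches was not itself tested, and both use the middle cells. For 231 of the 247 genes called in wide against narrow cells, the middle level lay between the others, as it did for 1641 of the 3375 genes not called. The called genes were chosen by the gap between the outer sides, which favours a middle level in between. No graded change is read from this count.

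Over the 10 groups of a plate by width, the share of S and G2/M UMIs was 0.631% in the narrowest group, 0.778% in the fifth, 1.15% in the seventh and 1.82% in the widest (means of plates). Median UMIs per cell were 1085, 1356, 1371 and 1737 in the same groups. They did not climb at each step, and the sixth group had 1156.

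Other cytometer channels moved with width. Ranks within a plate, on a scale of 0 to 100, averaged 79.6 in wide cells and 27.6 in narrow cells for SSC.A, and 61.3 and 34.9 for CFP. Both were higher in wide cells of 4 of 4 plates (exact p = 0.125, adjusted over the 11 channels outside forward scatter 0.138). Of these 11 only 1, an Alexa Fluor dye channel, was lower on average, at 48.2 and 49.5. Width is computed from FSC.A and FSC.H, so their ranks are given without a test, 67.5 in wide cells and 24.3 in narrow cells for FSC.A and 52.5 and 33.5 for FSC.H. Median FSC.A was 649 ± 16.7 in wide cells and 537 ± 6.70 in narrow cells, and median SSC.A 273.5 and 168.5. Across the 1420 cells, within plates, Spearman's rho with FSC.W averaged 0.641 for SSC.A, 0.565 for FSC.A, 0.323 for CFP, 0.293 for UMIs and 0.274 for FSC.H, given as a description.

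The cells were next cut by FSC.A and by SSC.A in the same way. The cuts share cells: the high SSC.A side held 177 of the 285 wide cells (62.1%) and the high FSC.A side 137 (48.1%). By SSC.A, 106 of 3231 genes were higher (3.28%) and 67 lower (2.07%). The risers included 27 of 31 G2/M genes (median 2.04), 17 of 31 S phase genes (1.12) and 4 of 6 tubulins, and the falls 8 of 26 HSC genes. Of 11 histones by this cut 9 rose and 1 fell, Hist1h2bc (-1.55). By FSC.A, only 4 of 2893 genes were higher (0.138%), all of the translation machinery (Rplp1, Rpl14, Rpl26 and Eef1b2, by 0.14 to 0.29), and 1 lower (0.0346%), the carbonic anhydrase Car1 (-1.31). No G2/M gene of 25 and no S phase gene of 29 passed by area, and their medians were -0.31 and 0.20. Tuba1b had a log2 fold change of 1.35 by SSC.A and 0.18 by FSC.A, the second not called, beside 1.48 by width.

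Within 4 equal groups of each plate by FSC.A, cells above the median width of their group were set against the others. The fit used 32 sums, in which the 4 groups of a plate count as separate sums although they share the plate, and 1255 genes passed the filter. Of these 62 were higher (4.94%) and 76 lower (6.06%), among them 11 of 14 S phase genes, 4 of 6 G2/M genes and 6 of 6 histones on the higher side and 18 of 46 ribosomal and 5 of 16 HSC genes on the lower. Tuba1b was higher by 0.83 ± 0.07 (edgeR adjusted p = 9.5e-17). With the groups summed to 1 pair of sums a plate, an alternative added after the data were seen, 120 of 4946 genes were higher (2.43%) and 38 lower (0.768%). Then 18 of 40 S phase genes, 30 of 38 G2/M genes and 11 of 14 histones were higher, and 5 of 67 ribosomal and 3 of 31 HSC genes lower, with Tuba1b again at 0.83.

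In the converse fit, area at matched width, over 32 such sums, 22 of 1276 genes were higher (1.72%), 14 of them ribosomal out of 46 tested, and 8 lower (0.627%). There 4 of 4 histones and 2 G2/M genes fell, Top2a by 0.84 on the log2 scale, and Ifitm1 rose by 0.40 and Mllt3 by 0.55. Summed to 1 pair a plate, likewise added later, 24 of 5036 genes were higher (0.477%) and 35 lower (0.695%). Of these 17 of 66 ribosomal genes were higher, and 16 of 42 G2/M genes, 8 of 13 histones and 2 of 39 S phase genes lower. There Top2a was at -0.95, Hist1h1b at -1.09, Tuba1b at -0.26, Ifitm1 at 0.44 and Mllt3 at 0.61, each called by edgeR.

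**Figure D4:**
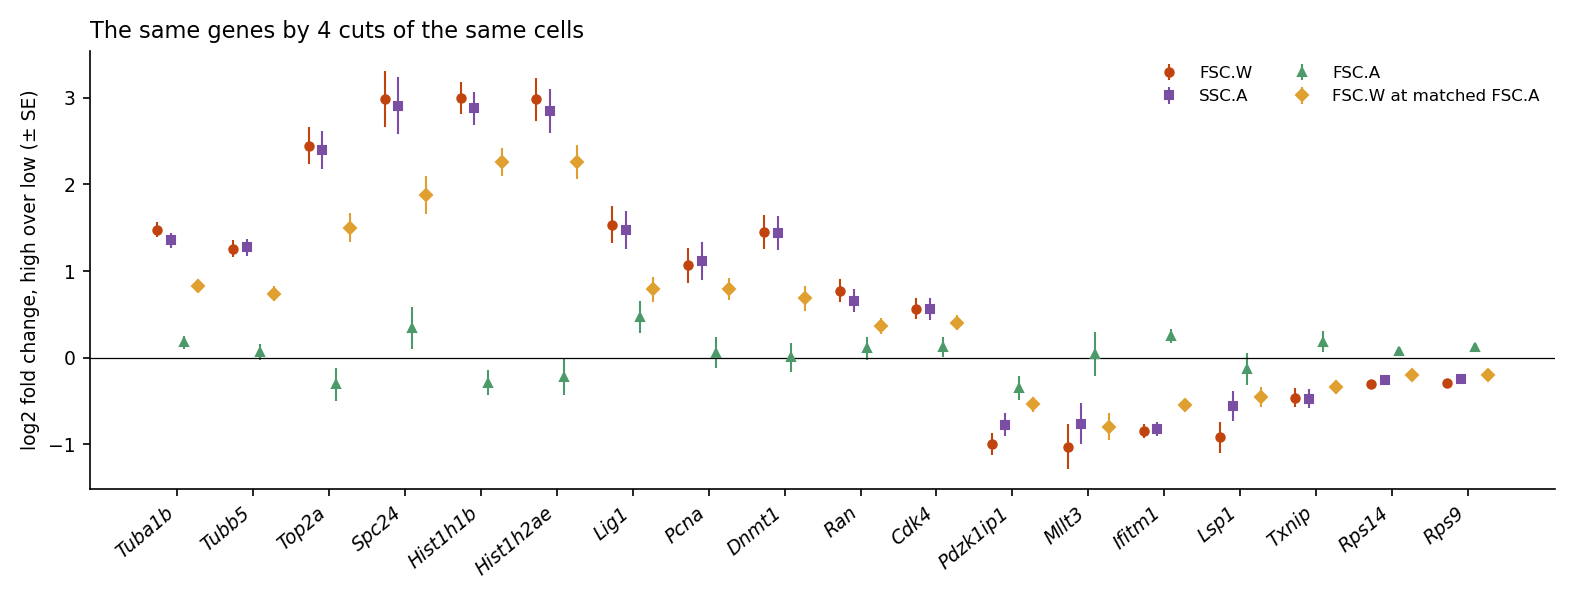
Log2 fold change (high over low side, with SE) of Tuba1b, cell cycle, histone and HSC genes when the cells are cut by FSC.W, SSC.A and FSC.A, and by width at matched FSC.A. Width and side scatter give like values, such as 1.48 and 1.35 for Tuba1b, while forward scatter area gives 0.18.

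Because CFP, side scatter and RNA content moved with width, width was also compared within 4 equal groups of each plate by each of them (above against at or below the group's median width, summed per plate). These fits compare less extreme widths than the 20% sides, and cells of 1 group still differ in the matched measure. At matched CFP, 64 of 4975 genes were higher (1.29%) and 5 lower (0.101%), among them 32 of 41 G2/M genes, 10 of 14 histones and 3 of 41 S phase genes on the higher side and Mllt3 (-0.66) and Pdzk1ip1 (-0.33) on the lower. At matched UMIs, 84 of 5017 genes were higher (1.67%) and 14 lower (0.279%). The higher side held 30 of 40 G2/M genes and 9 of 40 S phase genes, and the lower side 3 of 31 HSC genes. Of 13 histones there 10 were higher and 1 lower, Hist1h2bc (-0.79). At matched SSC.A, 44 of 4926 were higher (0.893%) and 8 lower (0.162%), with 21 of 37 G2/M genes and 3 of 42 S phase genes on the higher side. Tuba1b passed in each, at 0.69 ± 0.05, 0.75 ± 0.05 and 0.53 ± 0.06. Far fewer genes were called when single wide and narrow cells were paired 1 to 1, which leaves fewer cells. Pairs on CFP gave 2 of 965 genes, on UMIs 11 of 1263 and on SSC.A 4 of 300. In the CFP pairs the difference in S and G2/M share was 0.213 percentage points, against 0.892 in the full sides.

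In a further fit the 20% of cells of each plate with the highest S and G2/M share were left out before the cut by width. Of 2029 genes tested, 2 were then higher (0.0986%) and 1 lower (0.0493%). These were Tuba1b (0.61 ± 0.12, edgeR adjusted p = 0.00078), Ssrp1, a subunit of the histone chaperone FACT (0.91 ± 0.21, 0.021), and Pdzk1ip1 (-0.56 ± 0.14, 0.038). Fewer cells and genes enter this fit. Genes of the S and G2/M lists set which cells were removed, so the loss of their calls here is not read as a result. Of the 247 genes called in all cells, 173 could be tested and 144 kept their sign. The ribosomal list did not stay low, with 38 of 49 members above 0 and a median of 0.06.

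The record also gives each cell a whole number called map, from 2 to 10 in the cells used. Wide cells lay mostly in map 9 (27.5% ± 9.54), map 8 (17.1% ± 10.3) and map 4 (14.5% ± 6.60), and narrow cells in map 4 (34.2% ± 8.33) and map 5 (25.2%). Map 9 held 78 wide cells and 5 narrow cells, and map 10 held 24 and 4. Cells of map 9 had a median of 2340.5 UMIs, and those of map 10 had 2.82% of UMIs from S and G2/M genes. The smallest p of the exact test was again 0.125, or 0.188 adjusted over 9 groups, and since the numbers may have been assigned from RNA, no more is read from them.

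**Figure D5:**
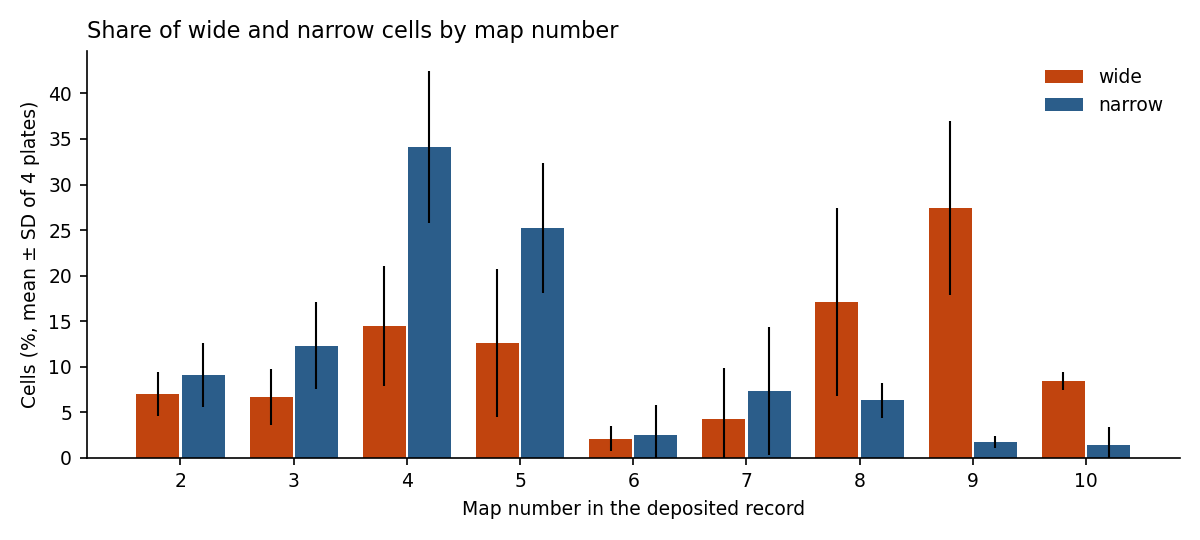
Percent of wide and of narrow cells in each map number; bars are means and lines SDs of the 4 plates. Map 9 held 27.5% of wide cells and 1.75% of narrow cells, and map 4 held 14.5% and 34.2%.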

How the data were processed

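Values are UMI counts per gene and well, deposited as whole numbers (27297 gene entries, 1536 wells), and a record of 1430 index-sorted wells. The other 106 wells hold at most 502 UMIs. Per the file headers, the authors' record holds FSC.A as a linear intensity. It holds CFP as the log10 of a channel number, as the deposited values show. The authors' other channels have no stated scale and were used as a score, by rank within a plate. The submitters' processing notes list cutadapt, STAR, featureCounts and DESeq2 without roles, and no count filter is given in the sources used here. Spreadsheet errors replace the value of 47 wells in PE, 14 in PE-Cy5, 77 in PE-Cy7 and 70 in DAPI.

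Per plate, UMIs were summed by side (20% of cells each) and tested with edgeR 4.0.16 in R 4.3.3 (filterByExpr, TMM, plate as block, glmQLFit, glmQLFTest, Benjamini-Hochberg threshold 0.05 over all genes tested). The standard error is the log2 fold change divided by the root of F. Cell measures used exact sign-flip tests over the 4 plates. The plate number comes from the sort record, not the sample labels, and pairs the sides because each plate gives both. Named genes are Tuba1b, the 15 largest rises and falls with 1 sign in every plate, and up to 4 called members of each list. The rule's clause on uncalled members was not used, and other genes, such as Top2a, Mki67, Pcna, Ifitm1, Cdk4, Xbp1 and the gate genes, were named after their values were seen. The members and lists were chosen with earlier results of these data known. In simulated counts the fit recovered 73% of genes changed by 1 on the log2 scale and 100% of those changed by 2, with 4 false calls among 3480 genes. The changed genes were drawn from those with higher counts, and all genes were given the same dispersion. These figures therefore do not cover sparse genes or genes that vary more between plates. Intervals on counts cover counting error only.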

Additional observations from a re-analysis of the deposited data

Results flagged for a closer look

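In 6 of 131 patterns of 4 plate differences, 1 plate stood far from the other 3 by Dixon's criterion, which chance meets in about 1 of 20 such groups. The gap between wide and narrow cells in the percent of cells with a Tuba1b UMI was 14.5 percentage points in the lowest plate. The share of cells in map 5 differed by -16.7 points in 1 plate. On the log2 scale of wide over narrow, the plate that stood apart was at 3.19 for Tk1, 4.89 for Fam64a, -1.90 for Ier2 and -0.49 for Cox5a, the last with the opposite sign to the other plates.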

How the results depend on the processing

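For wide against narrow cells, 247 genes were called, and the count stayed within 1.5 times of this with library sizes alone, no filter, the wide and narrow sums only, 10% or 30% per side, map 1 included, cells of at least 1000 UMIs, or ties at the limit taken the other way (170 to 264). DESeq2 gave 124, no replicate block 66, the width residual on FSC.A and SSC.A 150, thinning to 500 UMIs 27, single cells matched on UMIs 11, on CFP 2 or on SSC.A 4, the highest S and G2/M cells left out 3, and width within 4 groups a plate by SSC.A 52, by CFP 69 and by UMIs 98. The matched, thinned and reduced fits use fewer cells or less extreme widths. The plates are cut within themselves, so the paired fit was the one reported. Without 1 plate the count was 150 to 204, for wide against middle cells (119) 81 to 103, middle against narrow (25) 9 to 14, FSC.A (5) 1 to 5, SSC.A (173) 105 to 148, and width at matched FSC.A (138) 58 to 128. The difference in median UMIs of 470 became 233 with the most cycling cells left out and 173.5 at matched CFP. The S and G2/M share difference of 0.892 points became 1.19 with 10% per side and 0.213 at matched CFP. Tuba1b passed under every setting tried (0.53 to 1.70).

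Directions turned in these fits, and the cause was not tested. With the most cycling cells left out, Hist1h1b was at -0.51, Tuba1c -0.54, H1fx -0.38, Top2a -0.13, Rpl30 0.046, Rps9 0.00087, Eef1a1 0.019, Eef2 0.10 and Ccnd2 0.21. Those cells were picked by their UMIs of the S and G2/M lists. Top2a is in the G2/M list, so its value there is not independent of the removal. In cells matched on CFP Rps9 was at 0.014 and Ccnd2 0.24, on UMIs Rps14 0.027, Rps9 0.024 and Eef2 0.019, and on SSC.A Rpl30 0.060. In 4 matched groups a plate Rpl30 was at 0.045 (CFP) and 0.047 (UMIs), Mcm6 -0.072 (CFP) and -0.014 (SSC.A), and Hba-a2 0.11 (UMIs). Lgals3bp was at 0.14 for the width residual, and map 1 gave 2.73 for Beta-s and 3.15 for Hba-a2. The Kit entry, not called at -0.48, was at 0.33 with cells thinned to 500 UMIs, but was called at -0.78 with cells of at least 1000 UMIs and at -0.44 in 4 groups a plate by UMIs. The share of map 6 differed by -0.35 points over all plates and by 1.88 without plate 2. Without 1 of the other plates it differed by -1.43 to -0.47 points.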
